A study of Mus musculus with 26 samples.

Results

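The 3 cells described here were sister blastomeres of embryo 1, a mouse 8-cell embryo, for which both the RNA and the DNA of the same cell were tabulated. They were chosen by their labels, as the embryo 1 cells whose closing numbers 11, 20 and 21 appear in the gene, transcript and DNA tables, and they are called cell 1, cell 6 and cell 7 after their labels. They gave 6 of the 26 samples of the series, and 3 of the 9 cells with columns in the tables; embryo 1 had 6 labelled cells in all, and the others were not analysed here. The embryos came from in vitro fertilization of C57BL/6 mice, have no genetic change or drug treatment named in their labels, and were taken apart by hand into single blastomeres. In scRR-seq the DNA of a lysed cell is caught on magnetic beads and its RNA is left in the lysate, so that full-length total RNA and the copy state of the genome are read from 1 cell. The study's sample list gives the scRR3 protocol for cell 1 and the scRR1 protocol, with a smaller lysis volume, for cells 6 and 7. A property of cell 1 and an effect of its protocol therefore cannot be told apart. In blastomeres isolated by hand the study found fewer transcripts with scRR1 than with scRR3, and a bias of scRR1 towards the 3' end. Means and SDs over the 3 cells pool both protocols. All 3 cells share 1 embryo and no condition separates them, so no test was possible and every difference below is a description.

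At the 8-cell stage the mouse embryo has switched from maternal transcripts to its own genome, and its blastomeres begin to adhere tightly and to acquire an apical surface. The cells later part into the trophectoderm, which forms the placenta, and an inner cell mass that gives the epiblast and the primitive endoderm. Transcription factors of all these fates are known to be transcribed together before the fates separate.

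RNA was given as TPM, a share of the RNA of a cell corrected for transcript length. The authors set the RNA reads of each cell to a common number, but a TPM does not keep the reads counted for a gene, so no interval for counting error is given, and absent signal is written as a value listed at 0. Of 55487 genes, 13319 had a TPM above 1 in cell 1, 11960 in cell 6 and 11088 in cell 7, a mean of 12122 ± 1124 (SD, n = 3 cells). A common set of 8913 genes passed this level in all 3 cells. These made up 55.9% of the 15951 genes detected in any cell, and they carried 95.7% of the TPM of cell 1, 96.4% of cell 6 and 97.5% of cell 7. Another 2590 genes were detected in 2 cells and 4448 in 1 cell, of which 2198 were found in cell 1 alone, 1263 in cell 6 alone and 987 in cell 7 alone.

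**Figure D1:**
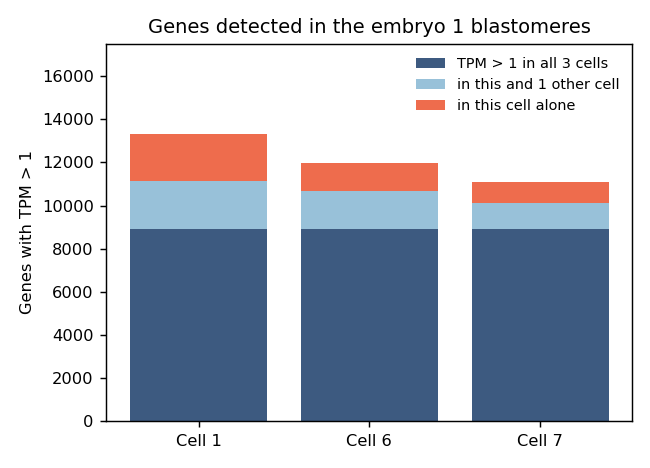
Stacked bars give the number of genes with a TPM above 1 in each blastomere, split into genes detected in all 3 cells, in this and 1 other cell, and in this cell alone. The common block of 8913 genes is the same in each bar, and cell 1 has the tallest top block with 2198 genes.

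For transcripts the cells differed more, with 26017 detected in cell 1, 20348 in cell 6 and 17696 in cell 7 (mean 21354 ± 4251, SD, n = 3 cells). The part of the protocol in this order was not tested. Only 10147 transcripts were detected in all 3 cells. Across all genes the Pearson correlation, on a log10(TPM + 1) scale, was 0.91 between cells 1 and 6, 0.90 between cells 1 and 7 and 0.90 between cells 6 and 7, so no pair stood closer than the others by this measure. These correlations run across genes, which are not independent replicates. The distance between sisters depended on the level of a gene. In the 3761 genes whose mean log2(TPM + 1) lay from 3 to 5, the highest and lowest cell differed by a median of 2.45-fold, and among the 297 genes at 9 or above by 1.71-fold, both on the TPM + 1 scale.

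The largest TPM values of all 3 cells belonged to very short genes annotated as microRNAs. MicroRNAs are small RNAs that pair with target messages through a seed, bases 2 to 8 of the mature strand, but a total RNA library also counts fragments of longer RNAs that match such a gene, and division by a short length raises the TPM. The 6 highest of these genes, 57 to 123 bases long, took 7.62% of the TPM of cell 1, 6.81% of cell 6 and 10.0% of cell 7. Their sequences are shown because they set how the highest values can be read. Gm24245 (chr4:139338304-139338360, plus strand), Gm23935 (chr16:11144125-11144181, plus strand) and Gm24270 (chr9:56223715-56223771, minus strand; all positions GRCm38, the mm10 build) have 1 and the same sequence, and its 3 exact copies in the assembled chromosomes are these 3 genes. Gm25732 lies beside Gm24245 (chr4:139338206-139338265, plus strand). For Mir6240 and Mir6236 the mature strand from RefSeq (GRCm38.p6) is given with its seed in capitals.
Gm24245: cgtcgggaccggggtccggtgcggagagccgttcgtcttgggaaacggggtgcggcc
Gm25732: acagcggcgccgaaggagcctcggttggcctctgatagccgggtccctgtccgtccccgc
mmu-miR-6240: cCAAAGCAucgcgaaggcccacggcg
mmu-miR-6236: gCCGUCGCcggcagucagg

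Each gene of the identical trio was listed at 17353 TPM in cell 1, 15328 in cell 6 and 25088 in cell 7. The equal values within a cell follow from the shared sequence, since a read cannot be placed in 1 copy, so that the 3 genes hold a single measurement. Gm25732 stood at 8617 TPM in cell 1, 16552 in cell 6 and 19093 in cell 7, lowest in cell 1. Mir6240 went the other way, with 11647 TPM in cell 1, 3920 in cell 6 and 4169 in cell 7. Mir6236 was also highest in cell 1, with 3853, 1683 and 1494 TPM. The seeds of the pair differ, and the values belong to genes of 117 and 123 bases, not to the mature strands.

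The 20 protein-coding nuclear genes with the highest mean were read in all 3 cells, with ranges over the cells from 0.22 on the log2 scale for Lars2 to 1.44 for Eloc. Lars2, a mitochondrial leucyl-tRNA synthetase, led with 8925 TPM in cell 1, 8544 in cell 6 and 9955 in cell 7, close to each other. Metallothionein Mt2, which binds metal ions, stood at 4505, 5265 and 6574 TPM, and Mt1 at 3258, 3167 and 4235 TPM. The chaperone Hspa8 was at 7046 TPM in cell 1, above 4216 in cell 6 and 3589 in cell 7. Fbxo15, an F-box gene known from pluripotent cells, was at 2541 TPM in cell 1, 6191 in cell 6 and 3908 in cell 7, and Eloc, an elongin subunit, followed the same order with 2143, 5797 and 3956 TPM. Dppa5a, a marker of pluripotent cells, was at 2751, 2149 and 3102 TPM. Most of the remaining places were taken by ribosomal protein genes such as Rpl41, Rplp2, Rplp1 and Rps2.

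The identity of the cells was checked against marker lists. All 10 blastomere genes were found in at least 2 cells and 9 in all 3. Pou5f1, the core pluripotency factor, was at 345.5 TPM in cell 1, 225.6 in cell 6 and 198.8 in cell 7. Cdh1, the adhesion protein of compaction, was at 179.9, 124.4 and 80.5 TPM. None of the 11 cumulus, 7 sperm, 5 blood or 6 fibroblast markers passed 1 TPM in more than 1 cell, and the blood genes, 3 of 6 fibroblast genes, 6 of 7 sperm genes and 8 of 11 cumulus genes were at 0 in every cell. The highest value of any of them was 1.95 TPM, for Col3a1 in cell 6. Xist, the RNA of the inactive X chromosome, was at 159.1 TPM in cell 1, 180.7 in cell 6 and 139.9 in cell 7, and the Y-linked Ddx3y, Eif2s3y, Zfy1, Zfy2 and Usp9y were at 0 in all 3.

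Pluripotency genes differed between the sisters about as much as genes of a similar level. Of 22 genes, 19 were detected in all 3 cells, 1 in 2 cells and 1 in 1 cell, and Sox2, a partner of Pou5f1 in the inner cell mass, was listed at 0 in every cell. The median member had a mean level of 61.2 TPM and a range over the cells of 0.90 on the log2 scale. The median range was 1.40 for the 12205 genes whose mean log2(TPM + 1) reached 1, but their median mean was 3.50. For the 2290 genes with a mean from 5 to 7 the median range was 0.97. The median mean of the list was 5.96, so its range lay near that of genes at its level. Dppa3, a maternal factor that protects methylation, was at 1339 TPM in cell 1, 2169 in cell 6 and 1201 in cell 7. Klf5, which acts in both early lineages, was at 287.6, 442.7 and 228.2 TPM. The widest member was Klf17, a factor of the early embryo, at 9.48 TPM in cell 1, 32.6 in cell 6 and 2.53 in cell 7. Nanog, which marks the future epiblast, differed in the other direction and was lowest in cell 1 at 18.6 TPM, with 46.7 in cell 6 and 83.0 in cell 7.

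Genes of the trophectoderm and the Hippo pathway, which carries the position of a cell to the factor Tead4, were read more strongly in cell 1. Of 21 genes 13 were detected in all 3 cells, 3 in 2, 4 in 1 and 1 in none. Tead4 was at 160.8 TPM in cell 1, 70.9 in cell 6 and 41.2 in cell 7. Gata3, a trophectoderm regulator and the widest member, was at 42.5 TPM in cell 1, 0.48 in cell 6 and 9.22 in cell 7. Cdx2, which specifies the trophectoderm, was at 9.80, 0.34 and 1.22 TPM, and the keratin Krt18 at 23.3, 1.65 and 1.18 TPM. Cell 1 was the highest for each of these genes. Other members of the Hippo pathway varied in their spread. The coactivator Yap1, at 80.6, 57.2 and 51.1 TPM, and Amot, an angiomotin, at 38.8, 31.8 and 26.01 TPM, lay close together. The related Amotl2, at 15.02, 4.2 and 2.37 TPM, spread more widely than Tead4 on the log2(TPM + 1) scale. The kinase Lats1 was at 8.88, 8.34 and 2.37 TPM, and Nf2, which acts above it, at 20.04, 24.7 and 10.1 TPM. Of the 16 members whose mean log2(TPM + 1) reached 1, cell 1 was the highest of the 3 cells for 13, where it was the highest for 43.5% of all genes at that level, and the lowest for 0, against 22.5% of all genes. The median member was 0.78 above the mean of the other cells on the log2(TPM + 1) scale in cell 1, and all genes at that level had a median of 0.33.

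Primitive endoderm and FGF genes did not share 1 order of the cells. Gata6, an early regulator of this lineage, was at 192.6 TPM in cell 1, 181.1 in cell 6 and 79.8 in cell 7. The endocytic adaptor Dab2 followed a steeper order with 95.6, 22.4 and 3.25 TPM. Its partner receptor Lrp2, the widest member, was at 54.5 TPM in cell 1, 3.43 in cell 6 and 0.21 in cell 7, and the related receptor Cubn at 10.2, 0.54 and 1.68 TPM. Fgf4, the ligand that future epiblast cells send, ran the opposite way, at 6.64 TPM in cell 1, 26.1 in cell 6 and 51.0 in cell 7, the same order as Nanog. Its receptor Fgfr2 lay at 38.1, 50.9 and 39.8 TPM, with little distance between the cells. The late markers Sox17, Foxa2, Hnf4a and Lama1 were listed at 0 in all 3 cells. Over the 14 members with a mean of at least 1, cell 1 was the highest for 7, cell 6 for 3 and cell 7 for 4, beside 43.5%, 31.6% and 24.9% of all genes at that level, so the counts lay near the background.

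**Figure D2:**
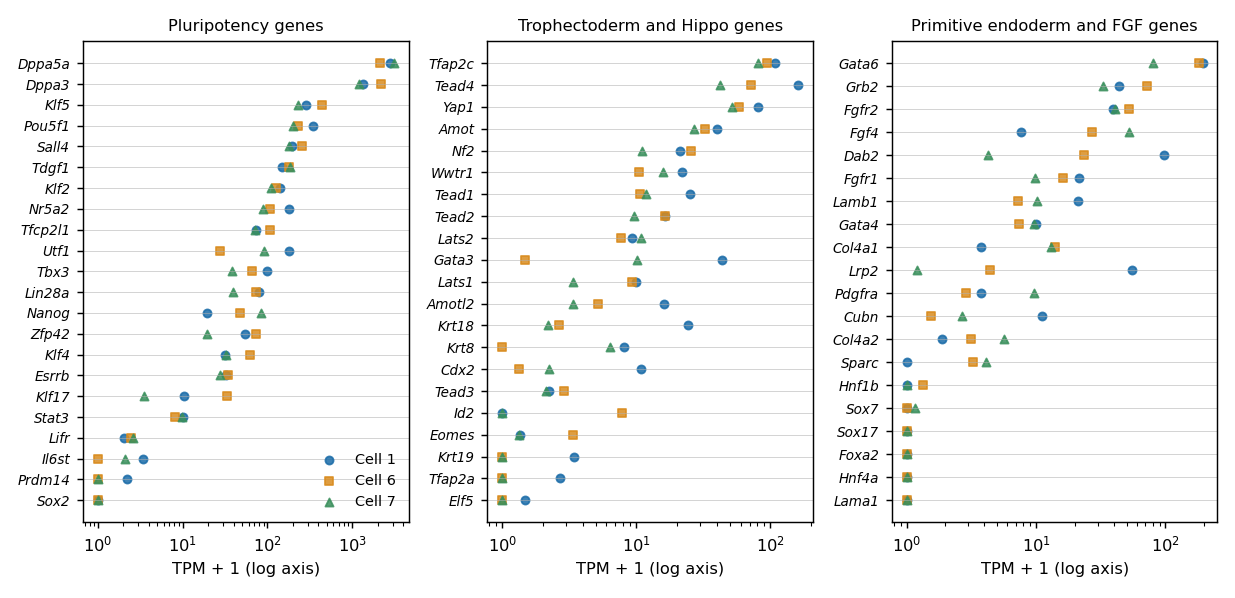
Each row is a gene and each symbol a blastomere, placed by TPM + 1 on a log axis, for the pluripotency, the trophectoderm and Hippo, and the primitive endoderm and FGF lists. Cell 1 lies to the right for Gata3, Cdx2, Krt18, Dab2 and Lrp2 and to the left for Nanog and Fgf4.

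Adhesion and polarity genes were nearly all present, with 24 of 26 detected in all 3 cells and the water channel gene Aqp8 listed at 0 in each. The tight junction gene Cldn7 was at 266.8 TPM in cell 1, 118.9 in cell 6 and 284.5 in cell 7. Cdc42, a GTPase of cell polarity, was at 170.6, 166.8 and 132.6 TPM. Ezr, a linker of the apical membrane to actin, spread the most, with 14.9 TPM in cell 1, 0.49 in cell 6 and 3.47 in cell 7. Cell 1 was the highest for 19 of the 25 members at a mean of at least 1, where it was the highest for 43.5% of all genes at that level, while the median difference of cell 1 from the other cells, 0.39, lay near the 0.33 of all genes.

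The cell cycle lists were detected almost in full. Of 45 G1/S genes, which prepare and carry out DNA synthesis, 41 were detected in all 3 cells, and of 40 G2/M genes, which drive mitosis, 38. Ube2c, of the ubiquitin system that ends mitosis, stood at 721.2 TPM in cell 1, 589.3 in cell 6 and 406.5 in cell 7. Cyclin Ccnb1 followed the same order with 682.4, 548.9 and 367.8 TPM. Its kinase Cdk1 was at 514.5 TPM in cell 1, 241.3 in cell 6 and 540.0 in cell 7, lowest in cell 6. The phosphatase Cdc25c, the widest member, was at 14.7 TPM in cell 1, 2.81 in cell 6 and 0 in cell 7. The median G2/M gene was 0.49 above the other cells in cell 1 and 0.47 below them in cell 7, and the median G1/S gene 0.16 above in cell 1 and 0.20 below in cell 7, where all genes had medians of 0.33 and -0.30. In G1/S, thymidylate synthase Tyms was at 521.6 TPM in cell 1, 197.7 in cell 6 and 298.0 in cell 7, whereas the helicase subunit Mcm3 was lowest in cell 1, at 97.0 TPM against 203.5 and 258.1. Ccne1, the cyclin of S phase entry, was at 197.6, 307.9 and 226.1 TPM.

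The median glycolysis gene was 1.03 above the other cells in cell 1 on the log2(TPM + 1) scale, with -0.48 in cell 6 and -0.79 in cell 7, and among the lists plotted here only the histone genes had a larger median in cell 1. Cell 1 was the highest of the 3 for 12 of 17 members with a mean of at least 1, against 43.5% of all genes at that level, and the lowest for 0, against 22.5%, while cell 6 was the lowest for 9, against 34.2%. Slc2a1, a glucose transporter, was at 71.5 TPM in cell 1, 3.46 in cell 6 and 30.9 in cell 7. Gapdh, an enzyme of the pathway, was at 56.4, 3.78 and 6.46 TPM. Pdha1, which passes pyruvate on to the mitochondrion, was even, at 348.6, 283.8 and 326.0 TPM. Hk2, a hexokinase, had its highest value in cell 7, at 39.4, 15.6 and 75.0 TPM. The remaining 4 members, Slc2a3, Ldhb, Eno1 and Slc16a1, were highest in cell 6, among them the enolase Eno1 at 14.9, 23.8 and 7.02 TPM. Slc2a3, Ldhb, Gapdh and Tpi1 lie in the part of chromosome 6 that was low in cell 7, described below. Hk1 and Pfkl lie in the part of chromosome 10 that was low in cell 6. Aldoa and Ldha lie in the stretch of chromosome 7 that was high in cell 1. The part of these stretches in the list values was not tested.

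Histone genes were most often lowest in cell 7. Of the 67 replication-dependent histone genes, whose messages lack a poly(A) tail and build up in S phase, 13 were detected in all 3 cells, 23 in 2, 15 in 1 and 16 in none. Cell 7 was the lowest for 26 of the 42 members with a mean of at least 1, against 43.3% of all genes at that level, and the highest for 3, against 24.9%. Hist1h2ap, the widest member, was at 255.6 TPM in cell 1, 226.8 in cell 6 and 0 in cell 7. Hist1h2bk was at 97.3, 90.03 and 19.1 TPM, also lowest in cell 7, while Hist1h4k was lowest in cell 1, at 2.81, 33.0 and 39.5 TPM. These genes resemble each other closely, and their split of reads is uncertain. Ribosomal protein genes went the other way in cell 7, which was the highest for 53 of 80 members and the lowest for 5. The lowest was most often cell 6, for 44, against 34.2% of all genes at that level. Rpl41 was at 7436 TPM in cell 1, 4220 in cell 6 and 11295 in cell 7.

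The mitochondrial genome contributed 6.29% of the TPM of cell 1, 6.77% of cell 6 and 4.28% of cell 7. The large ribosomal RNA mt-Rnr2 was at 9280.3 TPM in cell 1, 13572 in cell 6 and 7803 in cell 7. The complex IV message mt-Co2 was at 2064, 2005 and 359.4 TPM, whereas the complex V message mt-Atp6 was highest in cell 7, at 1858, 1769 and 4241 TPM. The messages of 1 genome thus did not move together. Values here may be shared with near-identical nuclear copies, and mt-Co3 was listed below 1 TPM in every cell. Whether the different orders lie in the split of reads between such copies was not tested.

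**Figure D3:**
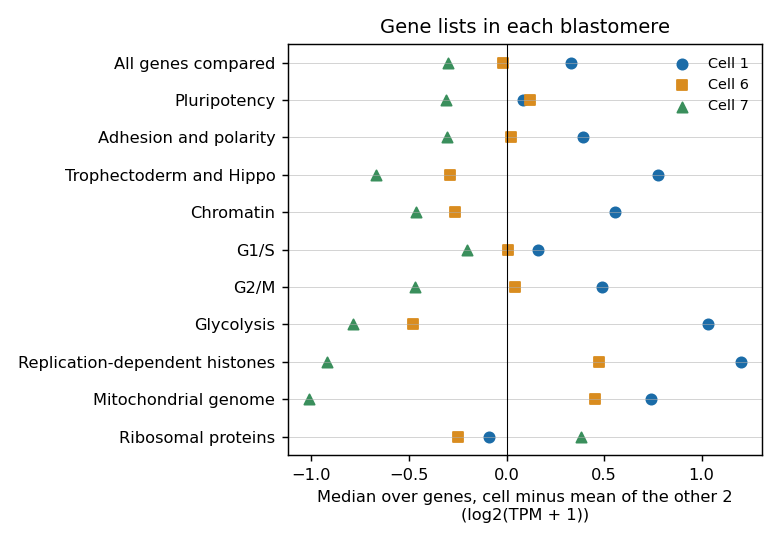
Symbols give, for each gene list and for all genes compared, the median over genes of a cell minus the mean of the other 2 cells in log2(TPM + 1). Histone, glycolysis and trophectoderm genes lie farthest to the right in cell 1, beyond the median of all genes at 0.33, and in cell 7 ribosomal protein genes lie at 0.38 and mitochondrial genes at -1.01.

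The differences moved with the exon length of a gene, merged over all its annotated transcripts. The common genes were put into 10 groups by exon length. In the shortest group the medians were 0.08 in cell 1, -0.17 in cell 6 and 0.21 in cell 7, and in the longest group 0.30, 0.12 and -0.42. Ribosomal protein genes have short messages, but their merged length can be long, as for Rps15a at 6270 bases and Rps3 at 4483. The part of length and of the protocol in the list values was not tested.

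Genes that set 1 sister apart were counted among the 7104 genes whose mean log2(TPM + 1) was 3 or more, as those at least 4-fold above or below both other cells on the TPM + 1 scale. Cell 1 was higher for 79 genes (1.11% of those compared) and lower for 82 (1.15%). Cell 6 was higher for 67 (0.943%) and lower for 119 (1.68%), and cell 7 higher for 32 (0.45%) and lower for 182 (2.56%). In the same order, 22, 31, 15, 47, 8 and 56 of these genes had a cell at 0. Protein-coding genes were 51, 31, 41, 68, 22 and 113 of them. Genes with identical values, such as Rpl35a-ps2, Rpl35a-ps3 and Rpl35a-ps4 at 41.05, 0 and 44.73 TPM, were each counted. With each cell centred on its median, cell 1 was higher for 43 genes and cell 7 for 57, so that the order of these cells in the higher counts turned. The lower counts then were 112 in cell 1, 116 in cell 6 and 124 in cell 7, so that they lay close together. In every group the genes set apart had a shorter median exon length than the 3882 bases of all genes compared. It was 2651 bases for genes higher in cell 1 and 648 for those lower. For cell 6 it was 1728 and 1581 bases, and for cell 7 1533.5 and 2351, in the same order.

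In cell 1, the ferritin-like Fthl17b was at 92.8 TPM and at 0 in cell 6 and 6.59 in cell 7. Gk, a glycerol kinase on the X chromosome, was at 54.9, 2.90 and 4.54 TPM. Gbf1, a factor of Golgi traffic, was at 41.7, 3.88 and 4.16 TPM. On the low side Fam166a was listed at 0 in cell 1 and at 173.4 and 629.4 TPM in cells 6 and 7, Ulk4 at 0.32, 91.6 and 93.9 TPM, and Nexn, an actin-binding protein, at 2.11, 42.9 and 50.8 TPM.

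In cell 6, Srp54a, a subunit of the signal recognition particle, was at 196.8 TPM, against 18.9 in cell 1 and 7.13 in cell 7. Zfp948 was at 49.8 TPM, against 5.71 and 6.44, and the aquaporin Aqp11 at 45.7 TPM, against 6.02 and 1.29. The mitochondrial mt-Nd4l was listed at 765.1 TPM in cell 6 and at 0 in the others. Gm28439 on chromosome 1 had the same pattern, at 742.2 TPM in cell 6 and 0 in the others. Values of mitochondrial genes may be shared with near-identical nuclear copies, and this was not tested here. Rhox5, an X-linked homeobox gene, was at 169.4 TPM in cell 1 and 119.0 in cell 7 and listed at 0 in cell 6. Nutf2, a nuclear transport factor, was at 49.6 and 25.4 TPM in cells 1 and 7 and at 0 in cell 6, and Ly6a, a surface protein, at 410.2 and 144.4 TPM against 5.07.

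In cell 7, Id1, an inhibitor of helix-loop-helix factors induced by BMP signals, was at 73.6 TPM, against 2.83 in cell 1 and 1.73 in cell 6. Pmaip1, a pro-apoptotic protein, was at 51.2 TPM, against 1.25 and 4.58, and Nf1, a Ras regulator, at 35.5 TPM, against 3.16 and 5.17. The phosphatase gene Ptpn12 was at 34.3 and 51.0 TPM in cells 1 and 6 and at 0 in cell 7. Etv6, a transcriptional repressor on chromosome 6 (chr6:134035700-134270158), was at 30.6 and 36.6 TPM in those cells and at 0.10 in cell 7.

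The genes low in cell 7 were not spread evenly over the genome. Chromosome 6 held 23 of the 182, which were 7.74% of its 297 genes compared, where 2.56% of all genes were called. For cell 6, chromosome 10 held 12 of the 119 low genes, 3.82% of its 314 genes compared, beside 1.68% of all genes. Each chromosome was therefore summarised by the median over the 8913 common genes of a cell minus the mean of the other 2, after subtraction of the median of all genes in that cell. The mitochondrial genome, at -0.46 in cell 7, was left out of the comparison of chromosomes. Chromosome 10 stood at -0.61 in cell 6, outside the range of -0.25 to 0.38 of the other 19 chromosomes. Chromosome 6 stood at -0.27 in cell 7, and the others at -0.14 to 0.38. Chromosome 7 stood at 0.26 in cell 1, just above the next chromosome, 10, at 0.24. Before that subtraction the 3 values were -0.64, -0.49 and 0.51. Since a value is taken against the sisters, a low chromosome in 1 cell lifts the value of the others. Correction for exon length left these medians at -0.62, -0.27 and 0.26.

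**Figure D4:**
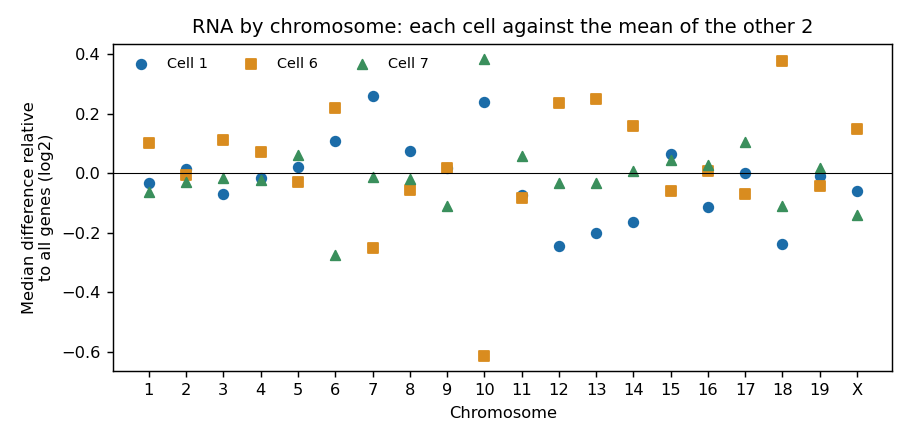
Symbols give the median difference of each blastomere from the mean of the other 2 cells by chromosome, in log2(TPM + 1), relative to the median of all genes in that cell, without the mitochondrial genome. Chromosome 10 in cell 6 lies lowest at -0.61, and chromosome 6 is the lowest plotted value of cell 7 at -0.27.

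Along chromosome 10 the difference of cell 6 began part of the way from the centromere. In the 20-Mb windows up to 60 Mb the medians of cell 6 were 0.02, -0.17 and -0.36, and in the 4 windows beyond 60 Mb -0.77, -0.83, -0.67 and -0.85. Over the genome, 127 windows had at least 20 common genes, and 4 of them (3.15%) had a median of cell 6 at least 0.5 below that of all genes. All 4 were these neighbours on chromosome 10. Over the 277 common genes of that stretch the median was 0.567-fold the mean of the sisters, relative to all genes, and cell 6 was the lowest of the 3 cells for 196 of them (70.8%), where it was the lowest for 34.0% of all common genes. This boundary, and that on chromosome 6, were set after the values were seen. The kinase Cdk4 lies there, at 310.4 TPM in cell 1, 85.6 in cell 6 and 176.8 in cell 7, as do Cdk1, the demethylase Tet1 at 102.1, 29.7 and 53.7 TPM, and the methylation cofactor Dnmt3l at 30.8, 10.1 and 46.7 TPM. Cell 6 had the lowest value of all 4. The antiproliferative gene Btg1, on the same chromosome, was at 126.0 TPM in cell 1, 0.61 in cell 6 and 18.2 in cell 7. Genes of the stretch without this order included the chaperonin gene Cct2, at 417.5, 633.1 and 946.9 TPM.

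Chromosome 6 had a similar step in cell 7. The medians of the first 5 windows ran from -0.09 to 0.19, and the last 3, from 100 Mb on, were at -1.05, -0.71 and -1.22. In cell 7, 4 of 127 windows (3.15%) were at least 0.5 below all genes, namely these 3 and 1 on the X chromosome. Over the 146 common genes beyond 100 Mb the median was 0.567-fold on the same scale, and cell 7 was the lowest for 103 (70.5%), beside 42.7% of all common genes. The signalling kinase Wnk1 was at 211.3 TPM in cell 1, 415.3 in cell 6 and 48.9 in cell 7. Bcat1, an enzyme of branched-chain amino acid turnover, was at 546.4, 497.5 and 118.5 TPM. Tead4, Etv6 and the glucose transporter gene Slc2a3, at 60.1, 83.3 and 17.3 TPM, lie in the same stretch. Nanog lies there too (chr6:122707489-122714633), beside Dppa3 (chr6:122626410-122630272), and had its highest value in cell 7. Chromosomes 6 and 10 have no bins in the DNA table, so their copy state was not analysed here. The study mentions chromosomally abnormal regions in cells of embryo 1, and its text does not locate them.

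**Figure D5:**
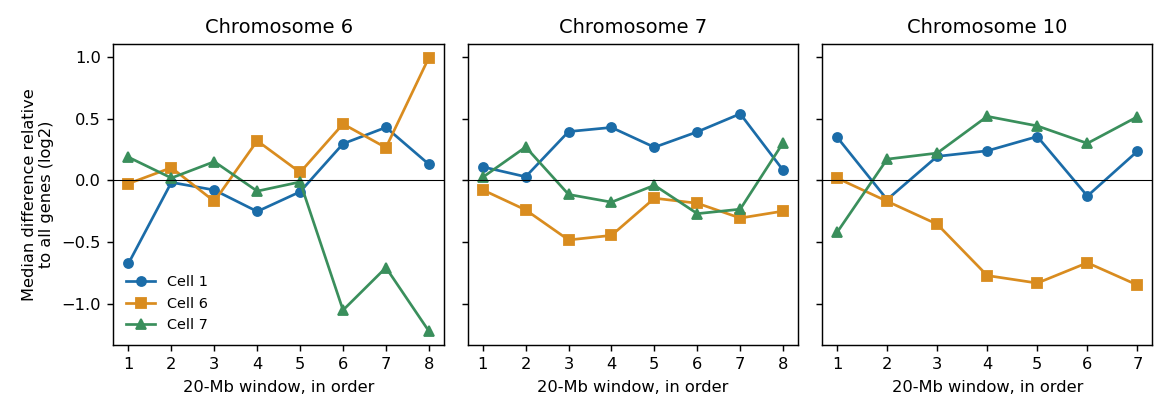
Lines follow the median difference of each blastomere from the mean of the other 2 cells, in log2(TPM + 1) relative to all genes, over 20-Mb windows in order from the start of chromosomes 6, 7 and 10. Cell 7 drops in the last 3 windows of chromosome 6, cell 6 in the last 4 of chromosome 10, and cell 1 stays at or above 0.27 from the third to the seventh window of chromosome 7.

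The DNA of the same cells was read as a state for each of 51976 bins of 40 kb on 17 chromosomes, replicated or unreplicated. Replication doubles the copies of a region in an order fixed for the cell type, so that a cell in S phase shows early regions as replicated and late ones as not. The score, the share of bins with a state that were replicated, was 3.54% in cell 1, 0.927% in cell 6 and 0.00385% in cell 7, with 1838, 482 and 2 replicated bins. These low scores go with the name of the group as cells outside S phase. A cell before S phase and one after it both have an even profile, so that G1 and G2/M were not told apart by these states. The study corrected mappability with 8-cell blastomeres outside S phase, and the examples it shows of them came from embryo 1. It describes those examples as even 2-copy profiles apart from chromosomally abnormal regions. Which cells of embryo 1 entered the correction is not given in the sources used here, and its part in these low scores was not tested.

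Most of the score of cell 1 came from chromosome 7. It held 1438 of the 1838 replicated bins, or 43.2% of its own bins with a state, and without it the score of cell 1 was 0.822%, close to that of cell 6. Chromosome 8 was next with 91 replicated bins. The bins of chromosome 7 formed separate runs, the longest of them 79 bins at chr7:66800001-69960000. A stretch of 96.9 Mb (chr7:46040001-142920000) was chosen from these same states. It scored highest when a replicated bin counted 1 and any other bin -0.5. In it 58.0% of the bins with a state were replicated in cell 1, against 4.96% in the rest of the chromosome. The way the stretch was chosen builds in this contrast. Of the 2399 bins of the stretch, 24 were replicated in cell 6 and 0 in cell 7. Whether the calls of cell 1 reflect replication or another change of copy number was not tested.

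RNA of the genes in this stretch was higher in cell 1. Over 380 common genes the median of cell 1 was 0.43 above that of all genes on the log2 scale, or 1.35-fold, and cell 1 was the highest for 62.4%, where it was the highest for 43.2% of all common genes. Its window from 120 to 140 Mb, at 0.54, was the single window of 127 (0.787%) with a median of cell 1 at least 0.5 above all genes. Over the 320 common genes of the rest of chromosome 7 the median was 0.11. Within the stretch, 206 genes in bins called replicated and 149 in bins called unreplicated had equal medians of 0.43. These medians come from 1 cell, and how accurate the calls of single bins were was not tested. The mitotic kinase Plk1 was at 257.0 TPM in cell 1, 65.7 in cell 6 and 95.3 in cell 7, and Utf1, a chromatin factor of pluripotent cells, at 177.1, 26.6 and 89.2 TPM. Folr1, a folate receptor, was at 700.2, 297.1 and 375.5 TPM. Rps13 was lowest in cell 1, at 1281, 1696 and 2400 TPM. The single longest run was poor in RNA. Of 55 genes annotated in it 2 were detected in all 3 cells, Fam169b at 10.6, 4.25 and 2.81 TPM and Mef2a, a muscle transcription factor, at 1.95, 3.12 and 4.97 TPM, which lay in opposite orders.

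The replicated bins of cell 6 were scattered. They formed 315 runs, of which 215 were single bins, and the longest was 10 bins at chr15:27800001-28200000. Chromosome 11 held the most with 46. Of these bins 54.1% were replicated in all 6 cells of embryo 2, which served only to mark early regions, where 47.0% of all bins were, and 1.24% were unreplicated in all 6, where 7.75% of all bins were. For the replicated bins of cell 1 the shares were 47.9% and 7.24%, near those of all bins. Cells 1 and 6 shared 100 replicated bins, 5.44% of those of cell 1 and 20.7% of those of cell 6. Of all bins with a state, 0.927% were replicated in cell 6 and 3.54% in cell 1. Outside chromosome 7 the cells shared 73 (18.2% and 16.4%), where 0.917% of bins were replicated in cell 6 and 0.822% in cell 1. The cause of this sharing was not tested. Cell 7 had only 2 replicated bins and shared 0 with either.

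Full-length libraries also show which transcript of a gene dominates. Among 2881 protein-coding genes with at least 20 TPM in every cell and at least 2 transcripts, the same transcript was the highest in all 3 cells for 1677 (58.2%). Cells 6 and 7 had the same leading transcript for 77.5% of these genes, cells 1 and 6 for 67.2% and cells 1 and 7 for 65.8%. The leading transcript took a median of 69.6% of a gene's TPM in cell 1, 79.1% in cell 6 and 83.1% in cell 7. The pair made with the same protocol was thus the closest, and cell and protocol cannot be told apart here. Hspa8 was the highest gene whose leading transcript differed. Its transcript Hspa8-209, annotated as non-coding, was at 2744 TPM in cell 1, 0 in cell 6 and 39.5 in cell 7, whereas the coding Hspa8-202 was even, at 2506, 3171 and 3110 TPM. For Fbxo15, the coding transcript that led in cells 6 and 7 was at 19.4 TPM in cell 1, 3467 in cell 6 and 2424 in cell 7, and the coding transcript that led in cell 1 was at 1991, 2364 and 1391 TPM. Rps25 and Sugt1 were also among the highest genes whose leading transcript differed, both by shifts between transcripts present in all 3 cells.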

How the data were processed

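Single blastomeres of mouse 8-cell embryos had been profiled by scRR-seq, RNA and DNA from the same cell. For RNA, the authors set the reads of each cell to a common number, aligned them to mm10 with Hisat, estimated abundances with RSEM against GENCODE M25 and deposited TPM values per gene and transcript, 1 column per cell. For DNA, the authors aligned reads with BWA 0.7.17-r1188 (submitters' processing notes), corrected mappability, and deposited a state score per 40-kb bin (1 replicated, -1 unreplicated, 0 no data) from a hidden Markov model. RNA columns were tied to cells by their closing number. Of the columns of each table, 14 carried no label of this series and were not used.

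Gene names, positions and exon lengths came from GENCODE M21, which held 55227 of the 55487 gene IDs; 22 of 213 detected microRNA-annotated genes matched RefSeq microRNAs by symbol. Levels were log2(TPM + 1), detection was a TPM above 1, and each cell was set against its 2 sisters (Python 3.11.15, numpy, pandas). No test was run, since 3 cells of 1 embryo are not replicates of a condition. The members, gene lists and rules were chosen with earlier results of these data known. The rule for named genes took the 20 protein-coding nuclear genes with the highest mean, the 8 genes farthest above and below the sisters in each cell, the 3 highest, the widest and the defining absent members of each list, sex-linked genes, and the highest genes in the longest run and of those with differing transcripts; other genes were named after their values were seen. The calculations were tested on simulated data. A few genes and sequences that these rules select are not reported here.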

Additional observations from a re-analysis of the deposited data

How the results depend on the processing

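Of 143 alternative values for 46 results, 91 stayed within 1.5 times the main count or within a spread. The spread was that of the cells, or of the pairs for correlations. For chromosome medians it was taken over the other chromosomes and unplaced sequences, and for leading transcripts it was a sampling interval over genes. In all, 4 medians changed sign, of pluripotency genes in cell 1, of G1/S genes in cells 1 and 7 and in the longest run. With TPM above 5, the mean number of transcripts per cell was 12430. The mean correlation of the pairs was 0.80 by Spearman's rho and 0.81 over genes detected in at least 1 cell, and leaving out a cell gave 0.901 to 0.908. The counts of genes set apart stayed within 1.5 times under a pseudocount of 0.1 and depended on the filter, the gap and the cells used. With the filter lowered to 1 on the log2 scale, cell 1 was higher for 510 genes and lower for 173, cell 6 for 323 and 313, and cell 7 for 254 and 598. Without a filter the higher counts were 903, 561 and 439 for cells 1, 6 and 7, and the lower counts 173, 313 and 598. With a gap of 1 on the log2 scale they were 610, 438 and 246 higher, and 281, 479 and 769 lower. With median-centred cells, cell 1 was higher for 43 genes and cell 7 for 57, and the other 4 counts stayed within 1.5 times. The lower counts of cells 1, 6 and 7 still drew together, from 82, 119 and 182 to 112, 116 and 124. With 1 sister left out, the higher counts ran from 317 to 402 in cell 1, from 254 to 351 in cell 6 and from 170 to 206 in cell 7, and the lower counts from 170 to 254, from 206 to 317 and from 351 to 402.

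Centring moved the pluripotency medians to -0.22 in cell 1 and -0.024 in cell 7, the G1/S medians to -0.14 and 0.082, and the ribosomal protein medians to -0.39 and 0.67. For chromosome 7 in cell 1 it moved the median from 0.51 to 0.21. For chromosome 6 in cell 7 the median moved from -0.49 to -0.20, and for chromosome 10 in cell 6 from -0.64 to -0.62. A pseudocount of 0.1 moved the histone median of cell 7 to -2.54. The score of cell 1 was 0.822% without chromosome 7. RNA inside the longest run rested on 2 genes. Its median in cell 1 was 0.31, 0.0065 when centred and -0.48 to 0.29 with a sister left out. Over the high-scoring stretch of chromosome 7 it was 0.68, an alternative chosen after seeing the data, as was the correction for exon length. No gene of the run passed 5 TPM in all 3 cells, so that alternative gave no value. The share of genes with 1 leading transcript was 53.3% at 5 TPM, 62.2% at 100 TPM and 65.1% to 76.8% with a cell left out, where only 2 cells have to match. No paired analysis was possible because no comparison between groups was made. The cause of these shifts was not tested. The small number of sisters, all of 1 embryo, a protocol that differs between cell 1 and the others, and TPM without read counts per gene limit every value.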

Other observations

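Genes of other programmes were also read in the 3 sisters. Of 23 oocyte genes, 11 were detected in all 3 cells and 5 in none. Khdc3, of the subcortical maternal complex, was at 608.4 TPM in cell 1, 411.4 in cell 6 and 751.7 in cell 7, far above the other members, and the zona pellucida gene Zp3 was at 32.2, 12.6 and 31.2 TPM. Of 21 genes of the 2-cell stage, when the genome is first activated, 3 were detected in all cells and 10 in none. Tdpoz2 was the highest at 76.8, 45.6 and 38.9 TPM, whereas Zscan4c, Zscan4d and Zfp352 were listed at 0.

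Stress genes were present without a common order. Hsp90aa1, a chaperone, was at 1581 TPM in cell 1, 3194 in cell 6 and 1746 in cell 7. The heat-inducible Hspa1b was at 7.86, 93.4 and 18.9 TPM, highest in cell 6. Fosb and Atf3 were at 0 in all 3 cells. Chromatin genes were detected in all 3 cells for 22 of 23. Carm1, an arginine methyltransferase, was at 40.2 TPM in cell 1, 9.17 in cell 6 and 9.34 in cell 7, and the demethylase Kdm5b at 181.1, 60.0 and 31.1 TPM. The Polycomb methyltransferase Ezh2 was lowest in cell 1, at 175.1, 370.0 and 367.0 TPM.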
